A study of Mus musculus with 25 samples.

Results

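The 8 genes described here carry bile acids across the small intestine, sense them, or mark which segment of it a sample came from. Fabp6, Slc10a2, Slc51a, Slc51b, Fgf15, Nr1h4, Nr0b2 and Gata4 were picked by symbol, and all 8 were found among the 35723 genes of the FPKM table (fragment counts scaled to gene length and library size, a level that can be compared between genes). Their levels were followed in 25 libraries of poly(A) RNA from mouse jejunum, 5 libraries in each of 5 groups. Per the series' design text, pups entered the study at postnatal day 14. Control pups went on suckling and were taken at postnatal day 21. The early-weaned group (EW) was weaned at postnatal day 15. The 3 other groups were early-weaned as well and received the human milk oligosaccharides 2'-FL (2'-fucosyllactose) and LNnT (lacto-N-neotetraose) together (EW+HMOs), 2'-FL alone (EW+2'-FL) or LNnT alone (EW+LNnT). Strain, sex, dose and the age of the early-weaned pups when taken are not given in the sources used here, nor whether each library came from a separate pup, so p-values measure the spread between libraries, which may be technical.

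Bile acids are made in the liver, released into the gut after feeding and recovered mainly in the ileum, the last segment of the small intestine. There Slc10a2, the apical sodium-dependent bile acid transporter, takes them into the enterocyte, Fabp6 binds them in the cytosol, and the heteromeric transporter of Slc51a and Slc51b (the organic solute transporter alpha and beta) releases them toward the blood. Inside the cell they activate Nr1h4, the farnesoid X receptor, which raises Fgf15, a hormone that slows bile acid synthesis in the liver, and Nr0b2, the small heterodimer partner, a nuclear receptor without a DNA-binding domain that represses other transcription factors. Gata4 is a transcription factor of duodenum and jejunum. In mice its loss from the intestine lets ileal genes, Slc10a2 and Fabp6 among them, appear in the jejunum.

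Sequencing gave 58.7 to 89.6 M counts per library. In EW+2'-FL 1, EW+LNnT 1 and EW+LNnT 2, mitochondrial transcripts took the largest shares of counts, 8.98% to 9.57%, and these libraries were set apart in earlier results of these data. Pancreatic acinar transcripts exceeded 0.1% of counts in Control 3 (0.832%), EW 1 (0.253%), EW+2'-FL 5 (0.383%), EW+LNnT 1 (1.04%) and EW+LNnT 2 (0.333%). Y-linked transcripts took 0.00781% to 0.0194% of counts in 1 control, 4 EW, 3 EW+HMOs, 4 EW+2'-FL and 2 EW+LNnT libraries, and at most 2.8e-05% in the others, which are called libraries without them here. The 1 control library with them, Control 2, also held Xist at 213.7 CPM (counts scaled to library size), a transcript of the inactive X chromosome. Libraries with Y-linked transcripts were thus unevenly spread between control and the early-weaned groups, and their share was fitted as a covariate in 1 of the other settings.

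The regions upstream of 4 of the genes are printed beside the motif that the farnesoid X receptor is known to bind: Fabp6 because its window alone held an inverted repeat, Slc51a and Slc51b because their levels moved together, and Nr0b2 because it was the member called between groups. RefSeq windows on GRCm38.p6, from 250 bases before to 50 bases after the gene start, were available for 6 of the 8 members, and the 250 bases before the start are printed 5′ to 3′ on the gene's strand. Capitals mark matches to the inverted repeat AGGTCANTGACCT with up to 2 mismatches or to its single arm AGGTCA, searched on both strands in the whole window. The arm lies inside the repeat.
Fabp6: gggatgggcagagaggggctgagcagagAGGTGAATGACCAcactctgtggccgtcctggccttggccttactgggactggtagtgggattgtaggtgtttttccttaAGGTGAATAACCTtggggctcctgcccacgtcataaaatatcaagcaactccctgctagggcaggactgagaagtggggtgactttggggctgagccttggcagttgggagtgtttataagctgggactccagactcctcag
Slc51a: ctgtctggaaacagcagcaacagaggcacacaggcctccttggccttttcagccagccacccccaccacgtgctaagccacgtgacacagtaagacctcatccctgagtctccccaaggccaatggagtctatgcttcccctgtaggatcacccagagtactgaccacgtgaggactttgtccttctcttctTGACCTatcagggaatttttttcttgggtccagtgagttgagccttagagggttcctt
Slc51b: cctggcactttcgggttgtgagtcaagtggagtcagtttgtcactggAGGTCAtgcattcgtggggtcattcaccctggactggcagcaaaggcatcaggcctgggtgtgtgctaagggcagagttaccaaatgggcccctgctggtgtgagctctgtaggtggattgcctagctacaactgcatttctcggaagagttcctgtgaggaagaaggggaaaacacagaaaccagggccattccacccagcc
Nr0b2: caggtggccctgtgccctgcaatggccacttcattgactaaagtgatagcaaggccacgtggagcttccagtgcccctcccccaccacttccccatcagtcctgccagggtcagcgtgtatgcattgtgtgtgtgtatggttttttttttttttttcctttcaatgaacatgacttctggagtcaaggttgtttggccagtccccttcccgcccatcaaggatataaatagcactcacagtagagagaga
These stretches lie at chr11:43601563-43601812 on the minus strand for Fabp6, chr16:32487880-32488129 on the minus strand for Slc51a, chr9:65422774-65423023 on the minus strand for Slc51b and chr4:133553126-133553375 on the plus strand for Nr0b2. The Fabp6 stretch held the repeat at 2 places, AGGTGAATGACCA from base -222 to -210 and AGGTGAATAACCT from base -142 to -130, counted from the gene start and each with 2 mismatches. Of 32851 promoter windows of this length, 1.14% held such a match and 0.0822% held one with at most 1 mismatch. The single arm stood in Slc51a (-58 to -53), Slc51b (-203 to -198) and Nr1h4 (-214 to -209), as it did in 16.3% of all windows. The GATA letters TGATAA (9.05% of windows) occurred in Slc10a2 and AGATAA (11.2%) in Nr1h4. None of these letters occurred in the Nr0b2 window.

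The apical transporter and the cytosolic binding protein, taken here as ileal genes, were at or near 0. Fabp6 (GRCm39 chromosome 11, 43486876 to 43492367) had no count in 24 of 25 libraries. The exception was EW+LNnT 2, with 8 counts and 0.186 FPKM. A count of 0 allows up to 3 counts, which is 0.0335 to 0.0511 CPM depending on the library, counting error only.

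Slc10a2 (chromosome 8, 5133219 to 5155351) was counted in every library, at 16 to 300 counts. Its FPKM was 0.0935, 0.231, 0.237, 0.105 and 0.116 in Control 1 to 5, and 0.280, 0.171, 0.181, 0.0924 and 0.350 in EW 1 to 5. It was 0.0673, 0.112, 0.177, 0.288 and 0.390 in EW+HMOs 1 to 5, and 0.0508, 0.291, 0.224, 0.207 and 0.467 in EW+2'-FL 1 to 5. It was 0.105, 0.0604, 0.941, 0.145 and 0.344 in EW+LNnT 1 to 5. All 5 groups overlapped, and EW+LNnT 3 stood above every other library.

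Gata4 (chromosome 14, 63436371 to 63509141), the jejunal factor, was high throughout. Its FPKM was 36.1, 38.2, 36.8, 44.0 and 39.3 in Control 1 to 5, and 28.3, 38.6, 38.5, 39.1 and 47.1 in EW 1 to 5. It was 40.1, 37.7, 45.3, 43.0 and 43.2 in EW+HMOs 1 to 5. In EW+2'-FL 1 to 5 it was 24.2, 26.8, 44.8, 49.1 and 50.0, and in EW+LNnT 1 to 5 it was 24.5, 25.6, 56.1, 40.1 and 47.5. The lowest levels were those of EW+2'-FL 1 and 2 and EW+LNnT 1 and 2, and group means lay between 38.3 ± 6.66 (EW, SD, n = 5) and 41.9 ± 2.95 FPKM (EW+HMOs, SD, n = 5). Per unit of gene length Gata4 exceeded Slc10a2 in every library, by 59.6 to 596.4 times (median 226.4).

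Other genes on the segment lists were mixed at both ends. Whether each listed gene, Guca2b among them, marks its segment was not tested, as every library is labelled jejunum. Apoa4, an apolipoprotein of fat-absorbing enterocytes, had a median of 8423 FPKM over the 25 libraries, Fabp1 1030, the milk-sugar enzyme gene Lct 321.5 and the incretin gene Gip 73.3, while the 6 other proximal genes lay between 1.42 FPKM (Cybrd1, a duodenal iron reductase) and 17.5 (Cck, the hormone cholecystokinin), and all 10 proximal genes were above 0 in every library. Of 9 genes on the distal list, 7 were above 0 in every library. Medians were 1281 FPKM for Guca2b, 63.9 for Amn, 31.6 for Cubn and 7.09 for Nts, while Slc10a2 had 0.181. Amn and Cubn, the ileal receptor pair for vitamin B12, therefore stood far above Slc10a2 and Fabp6 in the same libraries. Colon and stomach genes were near 0: Aqp8 had a median of 0.265 FPKM, Pgc 0.411 and Atp4a 0.120, and Car1 was counted in 3 libraries. On Gata4, Slc10a2 and Fabp6 the libraries did not go against the label jejunum. There was no ileal library of pups of this age, so whether these genes tell the segments apart here was not tested.

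**Figure D1:**
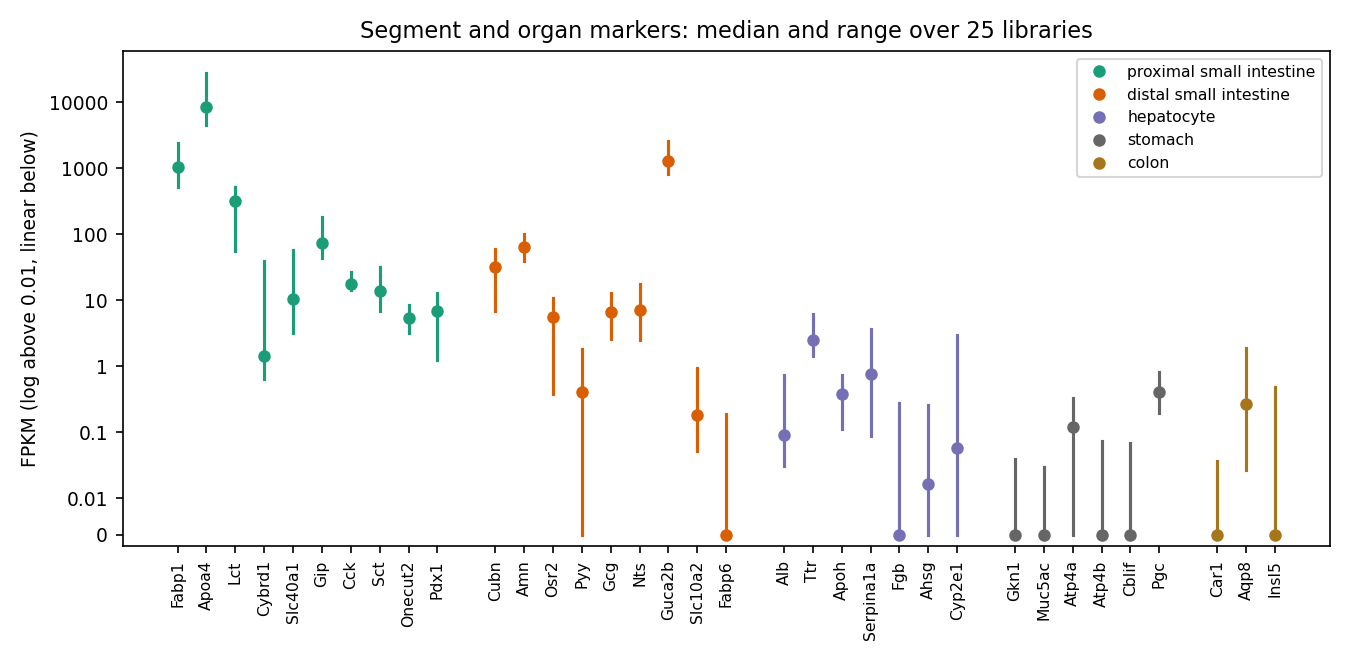
Median (points) and range (lines) of FPKM over 25 libraries, on a log axis that is linear below 0.01, for marker genes of proximal and distal small intestine, hepatocyte, stomach and colon. Medians on the proximal list run from 1.42 FPKM for Cybrd1 to 8423 for Apoa4. Guca2b and Amn are the highest on the list taken as distal, at 1281 and 63.9 FPKM, and Slc10a2 and Fabp6 sit at its bottom.

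**Figure D2:**
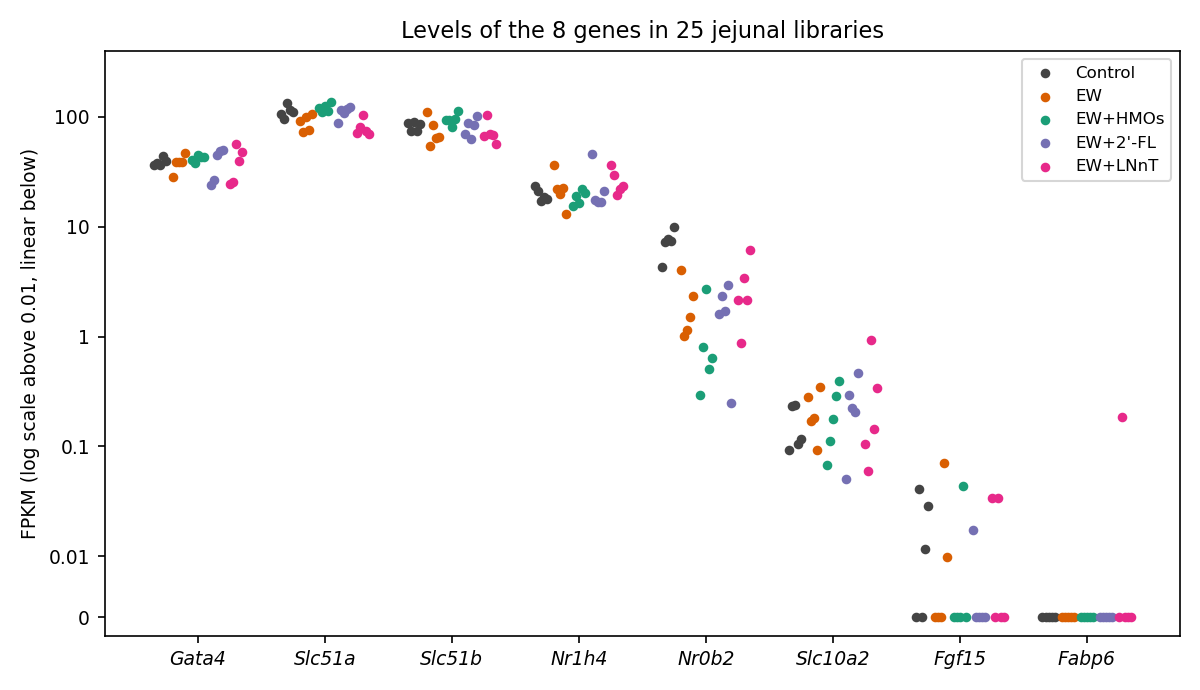
FPKM of the 8 genes in each of 25 libraries (points, coloured by group), on a log axis that is linear below 0.01. Slc51a, Slc51b, Gata4 and Nr1h4 lie between 12.99 and 137.2 FPKM in every library, Nr0b2 spans 0.248 to 9.88, and Fgf15 and Fabp6 are mostly at 0.

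The basolateral transporter genes were the most highly expressed members. Slc51a (chromosome 16, 32293322 to 32306697) had 107.2, 95.5, 133.5, 115.1 and 109.7 FPKM in Control 1 to 5, and 92.6, 72.4, 100.1, 75.7 and 107.3 in EW 1 to 5. It had 121.4, 111.2, 125.7, 114.2 and 137.2 in EW+HMOs 1 to 5. It had 88.8, 114.4, 108.5, 119.1 and 123.9 in EW+2'-FL 1 to 5, and 70.8, 80.2, 103.9, 74.0 and 70.1 in EW+LNnT 1 to 5. All 5 EW+HMOs libraries were above all 5 EW libraries, and 4 of 5 EW+LNnT libraries were below every control library in FPKM. In CPM scaled by TMM, EW+LNnT 2 (327.1) lay above the lowest control, Control 2 (321.6). Group means ran from 79.8 ± 14.1 (EW+LNnT) through 89.6 ± 15.2 (EW), 110.9 ± 13.6 (EW+2'-FL) and 112.2 ± 13.9 (control) to 121.9 ± 10.3 FPKM (EW+HMOs, SD, n = 5 each). Neighbours in that order differed by less than 1 SD, except for the step from EW to EW+2'-FL.

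Slc51b (chromosome 9, 65319996 to 65330237), the partner subunit, had 88.0, 74.1, 89.0, 74.8 and 85.5 FPKM in Control 1 to 5 and 110.4, 54.0, 84.4, 64.7 and 65.5 in EW 1 to 5. It had 94.0, 94.1, 80.5, 95.1 and 112.0 in EW+HMOs 1 to 5 and 69.2, 87.7, 62.6, 84.1 and 102.4 in EW+2'-FL 1 to 5. It had 67.3, 105.1, 70.2, 67.8 and 56.5 in EW+LNnT 1 to 5. Its groups overlapped throughout, with means from 73.4 ± 18.5 (EW+LNnT) to 95.1 ± 11.2 FPKM (EW+HMOs, SD, n = 5). The 2 subunits were present at like levels per gene length: the ratio of Slc51a to Slc51b FPKM was 0.763 to 1.73, with a median of 1.28.

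No difference of either subunit passed the test over all genes. Differences were tested with edgeR's quasi-likelihood test on the counts of all 25 libraries, and p-values were adjusted by Benjamini-Hochberg over 22131 genes; a gene was called at an adjusted p under 0.05. Slc51a was 0.51 ± 0.15 higher in EW+HMOs than in EW on the log2 scale (± SE; 95% interval 0.20 to 0.82), with an unadjusted p of 0.0024 in edgeR and an adjusted p of 0.92. In that comparison 0% of all genes were called and 4.16% had an unadjusted p under 0.05, against 1 of 6 members. Its log2 difference from control was -0.31 ± 0.15 in EW (edgeR adjusted p = 0.35) and -0.37 ± 0.15 in EW+LNnT (edgeR adjusted p = 0.11). In limma on log2(FPKM + 0.1) the latter was called (-0.50, adjusted p = 0.023). That fit carried a shift over all genes tested: their median log2 difference was -0.13, beside -0.004 in edgeR. Limma on log2(FPKM + 1) called Slc51a in the same comparison as well (-0.49, adjusted p = 0.023), where that median was -0.038. The 2 limma fits called 9.99% and 9.94% of all genes there. Between the single oligosaccharides, Slc51a was 0.36 ± 0.15 higher on the log2 scale with 2'-FL than with LNnT (edgeR unadjusted p = 0.025, adjusted p = 0.53), where 8.51% of all genes had an unadjusted p under 0.05 and 0% were called. Slc51b was 0.37 ± 0.21 higher in EW+HMOs than in EW (95% interval -0.07 to 0.81, edgeR adjusted p = 1) and 0.29 ± 0.21 higher than in control (edgeR adjusted p = 0.50).

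The subunits varied together across libraries. Over 25 libraries, log2 CPM of Slc51a and Slc51b correlated with Pearson's r = 0.676 (permutation p = 0.00014, adjusted 0.0021 over 15 pairs of members) and Spearman's rho = 0.651 (permutation p = 0.00056, adjusted 0.0084). Without the 2 libraries farthest from the median of Slc51a the coefficient was 0.544, on deviations from group means it was 0.659, and without EW+2'-FL 1, EW+LNnT 1 and EW+LNnT 2 it was 0.772. No other pair passed. Slc10a2 and Gata4 came closest, with r = 0.520 (permutation p = 0.0076, adjusted 0.057) and rho = 0.526 (permutation p = 0.0073, adjusted 0.055). For this pair r fell to 0.300 without the 2 libraries farthest from the median of Slc10a2. It was 0.560 on deviations from group means and 0.382 without EW+2'-FL 1, EW+LNnT 1 and EW+LNnT 2. EW+LNnT 3 had the highest level of both.

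**Figure D3:**
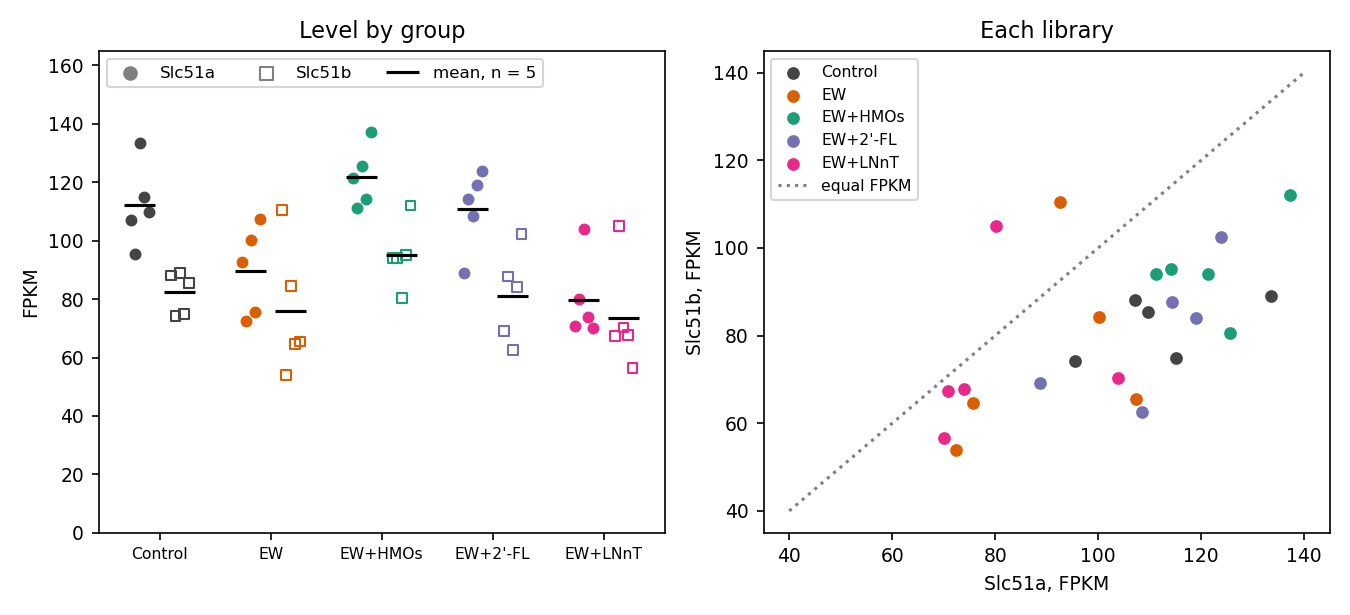
Left, FPKM of Slc51a (filled circles) and Slc51b (open squares) per library by group, with the mean of 5 libraries as a line; right, Slc51b against Slc51a in each of 25 libraries, with a dotted line at equal FPKM. All EW+HMOs circles, 111.2 to 137.2 FPKM, lie above all EW circles, 72.4 to 107.3 FPKM, and EW 1 and EW+LNnT 2 are the libraries with more Slc51b than Slc51a.

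The receptor gene Nr1h4 (chromosome 10, 89290096 to 89369447) was expressed in every library. Its FPKM was 23.5, 21.2, 17.3, 18.8 and 17.9 in Control 1 to 5, and 36.7, 22.2, 19.8, 22.7 and 12.99 in EW 1 to 5. It was 15.3, 18.9, 16.3, 22.1 and 20.1 in EW+HMOs 1 to 5, and 45.8, 17.5, 17.0, 16.9 and 20.9 in EW+2'-FL 1 to 5. It was 36.7, 29.3, 19.5, 22.1 and 23.7 in EW+LNnT 1 to 5. The 4 libraries above 29 FPKM were EW 1, EW+2'-FL 1, EW+LNnT 1 and EW+LNnT 2, and 3 of them are the libraries with the largest mitochondrial share. Gata4 was low in the same 4, at 24.2 to 28.3 FPKM.

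No group difference of Nr1h4 passed. Its log2 difference was 0.26 ± 0.31 for EW against control (95% interval -0.38 to 0.89, edgeR adjusted p = 0.76) and 0.56 ± 0.31 for EW+LNnT against control (edgeR adjusted p = 0.25). The first of these changed sign without EW 1, to -0.055. Across libraries Nr1h4 and Gata4 had r = -0.455 (permutation p = 0.023, adjusted 0.12) and rho = -0.352 (permutation p = 0.086, adjusted 0.26), and r was -0.09 without EW+2'-FL 1, EW+LNnT 1 and EW+LNnT 2.

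The receptor's 2 signalling targets differed from each other in level. Fgf15 (chromosome 7, 144450268 to 144454690) was counted in 9 of 25 libraries, at 3 to 21 counts. It had 0, 13, 0, 4 and 7 counts in Control 1 to 5, 0, 0, 0, 21 and 3 in EW 1 to 5, and 0, 0, 0, 12 and 0 in EW+HMOs 1 to 5. It had 5, 0, 0, 0 and 0 in EW+2'-FL 1 to 5 and 8, 0, 8, 0 and 0 in EW+LNnT 1 to 5. Its highest level was 0.0712 FPKM, in EW 4, and every group held libraries at 0. Fgf15 and Fabp6 were too low for the count test. In exact permutation tests of 5 against 5 libraries on log2(CPM + 0.1), two-sided, over 16 comparisons, the smallest exact p was 0.286 and every adjusted p was 1; the smallest p this design can give is 0.0079. A difference was not detectable at this depth.

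Nr0b2 (chromosome 4, 133280687 to 133283847) was the member that differed between groups. Its FPKM was 4.27, 7.32, 7.80, 7.37 and 9.88 in Control 1 to 5, and 4.04, 1.01, 1.15, 1.51 and 2.34 in EW 1 to 5. It was 0.296, 0.799, 2.71, 0.508 and 0.645 in EW+HMOs 1 to 5. It was 1.60, 2.36, 1.71, 2.98 and 0.248 in EW+2'-FL 1 to 5, and 2.15, 0.878, 3.38, 2.17 and 6.11 in EW+LNnT 1 to 5. No EW+HMOs or EW+2'-FL library reached the lowest control. EW 1 lay just under Control 1 in FPKM but above it in CPM scaled by TMM (5.44 against 4.79), and EW+LNnT 5 lay among the controls.

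Group means of Nr0b2 were 7.33 ± 2.01 FPKM in control, 2.94 ± 1.98 in EW+LNnT, 2.01 ± 1.25 in EW, 1.78 ± 1.02 in EW+2'-FL and 0.991 ± 0.978 in EW+HMOs (SD, n = 5 each). The early-weaned groups were within 1 SD of their neighbours in that order. Against control, Nr0b2 was lower in EW+HMOs by 6.89-fold (log2 difference -2.78 ± 0.61, 95% interval -4.03 to -1.54, edgeR adjusted p = 0.0149), and this was called; 1.85% of all genes were called in that comparison. The call was lost without EW+HMOs 1, 2, 4 or 5, each left out alone, at edgeR adjusted p of 0.0521, 0.0546, 0.0543 and 0.0508, with log2 differences of -2.55 to -2.72. The edgeR test of any difference among the 5 groups called Nr0b2 as well (adjusted p = 0.0264, against 3.74% of all genes). That call was lost without Control 3, Control 4, Control 5, EW+HMOs 2 or EW+HMOs 4, each left out alone, with adjusted p up to 0.0875, and with the share of Y-linked counts as covariate (adjusted p = 0.0974).

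In the 3 other early-weaned groups the difference from control did not pass in edgeR. The log2 difference was -1.82 ± 0.58 in EW (95% interval -3.02 to -0.62, adjusted p = 0.15), -2.05 ± 0.59 in EW+2'-FL (-3.26 to -0.84, adjusted p = 0.060) and -1.25 ± 0.57 in EW+LNnT (-2.43 to -0.07, adjusted p = 0.16). Of all genes 0.953%, 2.54% and 10.6% were called in these comparisons. The EW difference was called by DESeq2 (adjusted p = 0.037) and in an edgeR fit of those 2 groups alone (0.019). Limma on log2(FPKM + 1) called it too (0.029). So did edgeR with the 5 libraries rich in pancreatic transcripts left out (0.035) and with EW 1 left out (0.044). Of all genes, these settings called 1.85%, 8.23%, 1.05%, 1.27% and 2.35% in that comparison, in the same order. The EW+2'-FL difference was called by DESeq2 (adjusted p = 0.0085), where 3.9% of all genes were called. All 4 comparisons share the control libraries.

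No difference of Nr0b2 between the oligosaccharide groups and EW passed in edgeR. The log2 difference was -0.97 ± 0.58 with both (95% interval -2.16 to 0.22, adjusted p = 1), -0.23 ± 0.57 with 2'-FL (-1.40 to 0.94, adjusted p = 1.00) and 0.56 ± 0.57 with LNnT (-0.61 to 1.73, adjusted p = 0.78). Between 2'-FL, a fucosylated trisaccharide, and LNnT, a tetrasaccharide without fucose, it was -0.79 ± 0.57 (-1.97 to 0.38, adjusted p = 0.72). Each of these intervals includes a difference of more than 2-fold in 1 direction. Across all genes 0%, 0% and 0.172% were called against EW, in the same order.

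**Figure D4:**
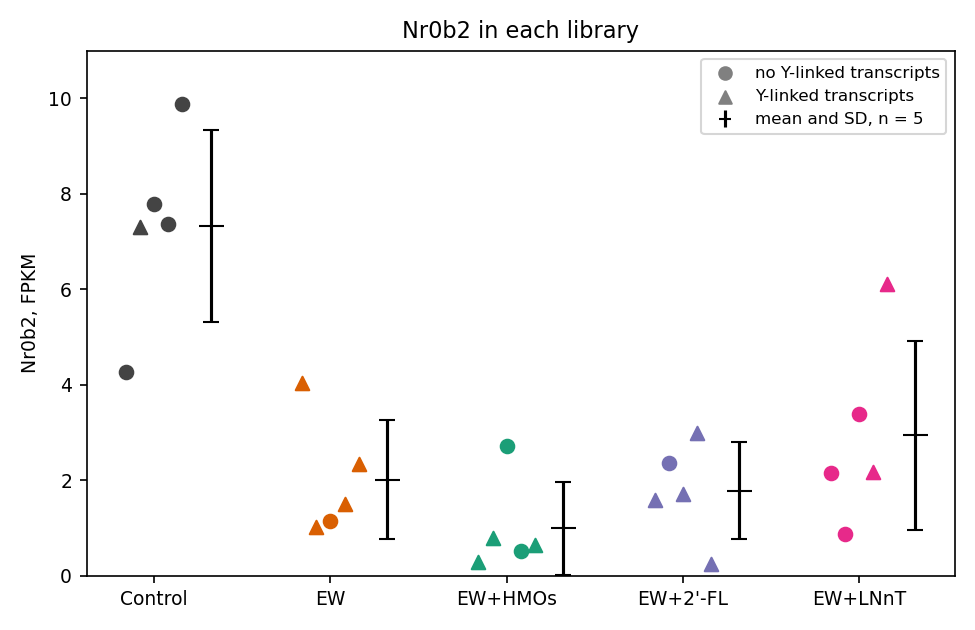
Nr0b2 FPKM in each library by group, with mean and SD of 5 libraries; triangles mark libraries with Y-linked transcripts and circles those without. The controls lie at 4.27 to 9.88 FPKM, and of the 20 early-weaned libraries EW+LNnT 5, at 6.11, is the only one above the lowest control.

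Other measures are set beside Nr0b2 here. Among libraries without Y-linked transcripts, Nr0b2 was 4.27 to 9.88 FPKM in 4 controls, 1.15 in 1 EW library, 0.508 and 2.71 in 2 EW+HMOs libraries, 0.878 to 3.38 in 3 EW+LNnT libraries and 2.36 in 1 EW+2'-FL library. With the share of Y-linked counts as covariate, the edgeR difference of EW+HMOs from control was -2.72 (adjusted p = 0.038) and that of EW was -1.65 (adjusted p = 0.42). Nr0b2 is also a liver gene. The hepatocyte list summed to 5.35 to 9.89 FPKM in control, 3.97 to 6.80 in EW and 2.44 to 3.45 in EW+HMOs; it was 3.63 to 8.80 with 2'-FL alone and 3.61 to 9.01 with LNnT alone. All 9 of its genes had rows in the table and 4 were above 0 in every library. Ttr and Serpina1a had the highest means, 3.02 and 1.35 FPKM, so the sum mostly follows them. Alb was at 0.0306 to 0.737 FPKM, and Fgb was at 0 in 24 libraries. The enterocyte list summed to 7786 to 9025 FPKM in control and 5572 to 6963 in EW, 6531 to 8160 in EW+HMOs, 3734 to 7103 with 2'-FL alone and 5690 to 6419 with LNnT alone. By this sum EW+HMOs, the group with the lowest mean of Nr0b2, overlapped control, and the 3 other groups lay below it. Fabp2, itself called lower than in control in every early-weaned group, had the highest mean on the list, 2022 FPKM, and weighs most in the sum. The median log2 difference of the 8 genes from control was -0.19 for EW and 0.23 with both oligosaccharides. It was -0.32 with 2'-FL alone and -0.15 with LNnT alone. The part of liver RNA and of enterocyte content in the Nr0b2 difference was not tested. In whole tissue, fewer cells of a type and less RNA per cell cannot be told apart.

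The other tested members gave no call in edgeR. Of these 5, Slc51a had an unadjusted p under 0.05 in EW against control (14% of all genes) and in EW+LNnT against control (27.1%), and none had one in EW+HMOs against control (18.6%) or in EW+2'-FL against control (17.3%). Against EW it was 0 with 2'-FL (5.42% of all genes) and 0 with LNnT (11.4%). Gata4 differed by -0.02 ± 0.20 between EW and control (95% interval -0.43 to 0.38, edgeR adjusted p = 0.97) and by 0.21 ± 0.20 between EW+HMOs and EW (-0.19 to 0.61, edgeR adjusted p = 1) on the log2 scale. Slc10a2 differed by 0.45 ± 0.61 between EW and control (-0.81 to 1.71, edgeR adjusted p = 0.79) and by 1.06 ± 0.61 between EW+LNnT and control (-0.20 to 2.33, edgeR adjusted p = 0.27). Both Slc10a2 intervals include a 2-fold rise.

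**Figure D5:**
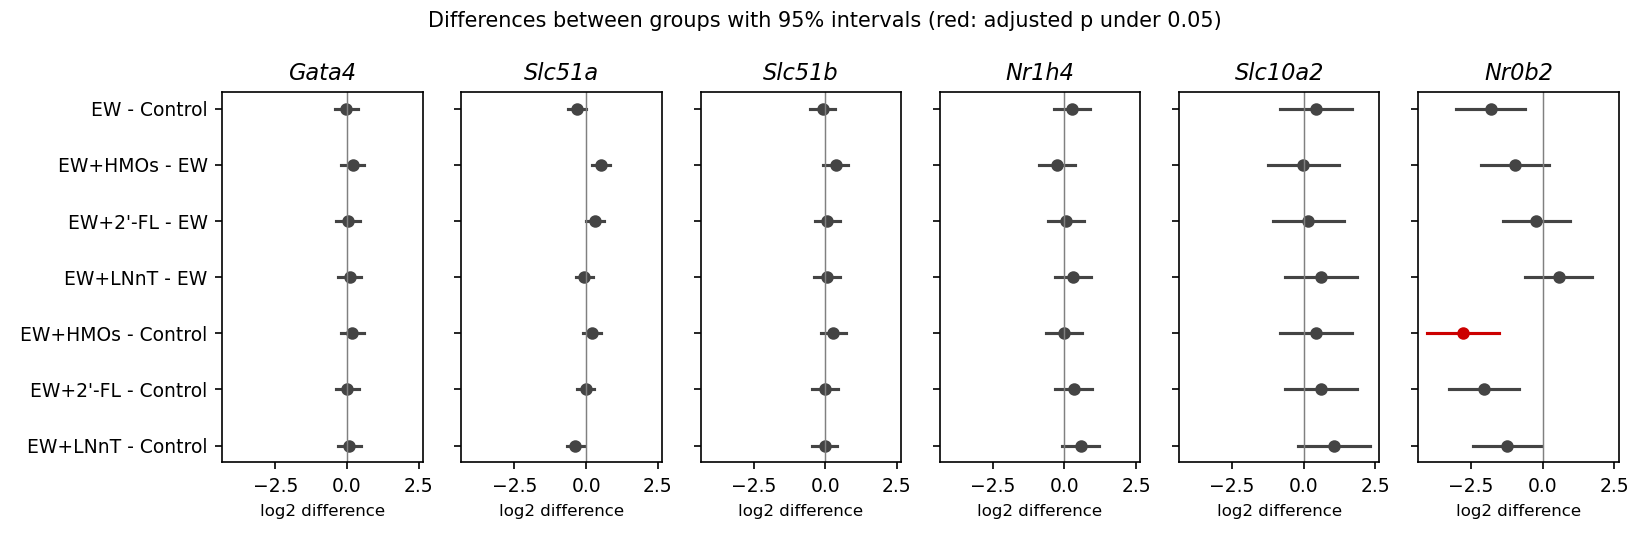
Log2 differences between groups (points) with 95% intervals (lines) for the 6 members tested in edgeR; red marks an adjusted p under 0.05. The interval of Nr0b2 for EW+HMOs against control, -4.03 to -1.54, is the one marked red, and the intervals are narrowest for Slc51a and Gata4 and widest for Slc10a2 and Nr0b2.

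Few other genes of the bile acid pathway were called. The lists, like the members, were chosen with earlier results of these data known. None of 6 other intestinal targets of the farnesoid X receptor was called by edgeR in the 8 pairwise comparisons, where 6 of 48 tests (12.5%) had an unadjusted p under 0.05, beside 13.3% of the tests of all genes in the same 8 comparisons, and DESeq2 called 1 (Sdc1 in EW+LNnT against control); the median levels of the leading ones were 245 FPKM for Cyp3a11, a drug- and bile-acid-metabolising enzyme, 159.6 for Akr1b7, 20.7 for Sptlc2 and 18.1 for Sdc1. Their median log2 difference between EW and control was -0.12, beside 0.02 over all genes tested. None of 8 efflux genes was called by edgeR, with 7 of 64 tests (10.9%) at an unadjusted p under 0.05, below the share over all genes, and 1 call by DESeq2 (Abcc3 in EW+HMOs against control), and medians of 202.5 FPKM for Abcg5 and 106.9 for Abcg8, the sterol exporter pair, 48.7 for Abcc2 and 9.85 for Abcc3. The 3 genes of Fgf15 signalling had no call in edgeR or DESeq2 and no unadjusted p under 0.05 among 24 tests: the liver receptor gene Fgfr4 had a median of 0.975 FPKM, its partner Klb 0.0724, and Malrd1, which affects Fgf15 output in mice, 14.5.

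Of 8 receptors and partners, Vdr, the vitamin D receptor, which also binds the bile acid lithocholic acid, was higher in EW+LNnT than in control by 0.59 ± 0.17 on the log2 scale (edgeR adjusted p = 0.030), where 10.6% of all genes were called. The call was lost in 11 of 35 other settings, with adjusted p of 0.0526 to 0.104: both limma fits, the Y-linked covariate, 2 groups only, no filter, the libraries with pancreatic transcripts left out, and Control 1, 3 or 5 or EW+LNnT 1 or 5 left out alone. The others, such as Hnf4a (median 97.0 FPKM), Nr1i2 (63.9) and Nr1i3 (26.02), were not called in edgeR. Of 7 tested genes of bile acid synthesis and uptake, Cyp27a1, a sterol hydroxylase of the alternative pathway with a median of 75.2 FPKM, was higher in EW+LNnT than in control by 0.78 ± 0.21 (edgeR adjusted p = 0.020), and the next highest, Cyp7b1, had a median of 1.07. The Cyp27a1 call was lost without Control 3, 4 or 5, each left out alone, and without the libraries with pancreatic transcripts (adjusted p up to 0.111). With 1 of 8 and 1 of 7 genes called, both lists were near the share over all genes in that comparison. The ileal and colonic factors Cdx2 and Cdx1, with medians of 65.8 and 61.2 FPKM, Gata6 (22.2) and Maf (24.4) were not called.

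Of 8 enterocyte genes Fabp2 was lower than in control, and of 10 proximal genes Fabp1 and Sct. Fabp2, the intestinal fatty acid binding protein gene of the same family as Fabp6, was lower than in control in EW (-0.99 ± 0.24, edgeR adjusted p = 0.044), EW+HMOs (-0.95 ± 0.24, 0.039), EW+2'-FL (-1.16 ± 0.24, 0.010) and EW+LNnT (-0.997 ± 0.24, 0.013) on the log2 scale. Fabp1, the liver-type member, was lower in EW+2'-FL (-1.16 ± 0.24, edgeR adjusted p = 0.011) and EW+LNnT (-0.97 ± 0.24, 0.016). Sct, the hormone gene secretin of the upper intestine, was lower in the 3 groups given oligosaccharides (both, 2'-FL, LNnT) by -0.80 ± 0.19, -0.87 ± 0.20 and -0.88 ± 0.20 (edgeR adjusted p = 0.033, 0.018 and 0.0090). Aqp8, a water channel on the colon list, was called lower in the same groups by -3.48 ± 0.56, -4.06 ± 0.58 and -1.81 ± 0.52 (edgeR adjusted p = 0.0011, 0.00029 and 0.028), from a level of at most 1.86 FPKM. In EW, Aqp8 was also below control, by -1.39 ± 0.51 and without overlap of libraries, but was not called (edgeR unadjusted p = 0.012, adjusted p = 0.22). Against EW its log2 difference was -2.10 ± 0.53 with both, -2.67 ± 0.55 with 2'-FL and -0.42 ± 0.51 with LNnT. None of these 4 genes was called against EW in edgeR, while DESeq2 called Aqp8 lower in EW+HMOs and EW+2'-FL than in EW. Several of these calls were lost in some of the 35 other settings, all with the direction kept. Fabp2 in EW was lost in 22 (adjusted p up to 0.201): RLE scaling, no filter, the Y-linked covariate, and any 1 control or EW+HMOs library, EW 2 to 5, EW+2'-FL 3 to 5 or EW+LNnT 4 or 5 left out alone. Fabp2 in EW+HMOs was lost in 10 (up to 0.123): the Y-linked covariate, and Control 1, 3, 4 or 5 or any 1 EW+HMOs library left out. Sct in EW+HMOs was lost in 10 (up to 0.133): the replicate block, the Y-linked covariate, the libraries with pancreatic transcripts left out, and Control 3 or 5 or any 1 EW+HMOs library left out. Sct in EW+2'-FL was lost in 5 (up to 0.116): the Y-linked covariate, 2 groups only, the libraries with pancreatic transcripts left out, and Control 3 or 5 left out. Sct in EW+LNnT was lost without the libraries with pancreatic transcripts (adjusted p = 0.117 in edgeR). Aqp8 in EW+LNnT was lost in 7, without Control 1, 3 or 5 or EW+LNnT 2, 3, 4 or 5, each left out alone (up to 0.0716). Fabp1 in EW+LNnT was lost without Control 3 or 5, and Fabp1 and Fabp2 in EW+2'-FL were lost with the Y-linked covariate (adjusted p = 0.0532 and 0.0578 in edgeR).

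The genes most like each tested member across libraries are listed here. They were picked as the highest among all genes compared. Their rho therefore cannot be set against that of the pairs of members, which were few and not picked by rho. Likeness was the Spearman rho of log2 CPM over 25 libraries, among 13463 genes with a mean of at least 1 CPM, and is given as a description. Plin2, a lipid droplet coat protein, was nearest to Nr0b2 (rho = 0.886), followed by Cldn3, a tight junction claudin (0.831), and Mmgt2 (0.824). Nr1h4 was followed by Camk2b (0.869), Mylip (0.858) and Pdk4 (0.852), and Gata4 by Itga6 (0.919), Pitpnm1 (0.908) and Mon1b (0.904). Slc51a was followed by Cycs, cytochrome c (0.853), Elovl1 (0.851) and Actb (0.818), and Slc51b by Ykt6 (0.867), Pex16 (0.845) and Tle5 (0.837). Slc10a2 had the weakest neighbours, Nop2 (0.715), Ppp1r10 (0.707) and Nudt7 (0.693). These points share library depth, the groups and the libraries that stand apart.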

How the data were processed

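Jejunal poly(A) RNA of 25 libraries was sequenced with a strand-marking dUTP kit, per the labels' protocols; whether counting used the strand is not stated there. The submitters' processing notes name the GRCm39 build and the tools edgeR, DESeq2, StringTie 2.1.6, cutadapt 1.9 and HISAT2 2.2.1. The deposited matrix holds whole-number counts per gene (57132 genes). A second table of the authors, the deposited FPKM of 35723 genes scaled to gene length and depth, gave symbols, coordinates and levels.

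Counts were scaled by TMM (CPM below) and fitted in edgeR 4.0.16 (R 4.3.3, robust quasi-likelihood) with 1 mean per group; 22131 genes passed filterByExpr. The procedure was also tested on data simulated from the means and spread of this fit. Alternatives were RLE scaling, no filter, DESeq2 1.42.0, limma 3.58.1 on log2(FPKM + 0.1) and log2(FPKM + 1), a Y-linked covariate, 2 groups only, a replicate block and libraries left out. Intervals are 95%. Correlations and exact permutation tests used scipy 1.17.1, with 100000 resamples for correlations.

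Named genes were the 8 members; from each list, called genes and up to 4 with the highest mean FPKM; and the 3 genes most like each tested member. Some list genes are not reported here. Members and lists were chosen with earlier results of these data known. Same-numbered libraries of different groups had correlations of deviations of -0.403 to 0.619 (median 0.0396). Differently numbered libraries of different groups had a like range, -0.547 to 0.597 (median 0.00471). Numbers were therefore not used as pairs.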

Additional observations from a re-analysis of the deposited data

Results flagged for a closer look

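In 3 of 30 sets of 5 libraries, 1 library lay far from the other 4 by Dixon's criterion (critical value 0.71 for 5 libraries); chance gives about 1 in 20. Slc51b reached 105.1 FPKM in EW+LNnT 2, above the 56.5 to 70.2 FPKM of the other EW+LNnT libraries. Nr1h4 reached 45.82 FPKM in EW+2'-FL 1, above the 16.9 to 20.9 FPKM of the other EW+2'-FL libraries. Both libraries are among the 3 with the largest mitochondrial shares, whose part in these values was not tested. Nr0b2 reached 2.708 FPKM in EW+HMOs 3, above the 0.296 to 0.799 FPKM of the other EW+HMOs libraries; this library has no Y-linked transcripts, and neither does EW+HMOs 4 at 0.508 FPKM.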

How the results depend on the processing

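Counts of members called, with 35 other settings tried, stayed at 0 against EW and between the single oligosaccharides. For EW against control the count rose from 0 to 1 in a fit of those 2 groups only, where 8.23% of all genes were called. The count was also 1 with DESeq2 (1.85% of all genes), limma on log2(FPKM + 1) (1.05%) and without libraries with pancreatic transcripts (1.27%). With 1 library left out the count was 0 to 1. It was 1 without EW 1, where 2.35% of all genes were called. For EW+HMOs against control the count was 2 in a fit of those groups only (Nr0b2, and Slc51b with edgeR adjusted p = 0.029). That fit called 25.1% of all genes, beside 1.85% in the main fit. With 1 library left out the count was 0 to 1. For EW+2'-FL against control the count was 1 with DESeq2 (3.9% of all genes). It was also 1 with limma on log2(FPKM + 0.1) (2.17%) and log2(FPKM + 1) (2.51%), and 0 to 1 with 1 library left out. For EW+LNnT against control the count was 1 with limma on log2(FPKM + 0.1), where Slc51a passed and 9.99% of all genes were called. It was 2 on log2(FPKM + 1), where Nr0b2 passed too and 9.94% of all genes were called. For any difference among groups the count was 0 with the Y-linked covariate (1.65% of all genes) and 2 with DESeq2 (8.24%). It was also 2 with limma on log2(FPKM + 0.1) (2.9%) and log2(FPKM + 1) (3.02%) and without libraries with pancreatic transcripts (3.16%). With 1 library left out it was 0 to 2. With the replicate block the count for EW+HMOs against control was 1 (1.8% of all genes), and that for any difference 1 (3.08%). The block lost the call of Sct in EW+HMOs (edgeR adjusted p = 0.057), and no other named call. Directions turned for values near 0: Nr0b2 in EW+2'-FL against EW, 0.56 without libraries with pancreatic transcripts and -0.54 to 0.28 with 1 library left out (0.0484 without EW+2'-FL 5); Gata4 in EW against control, 0.0289 without libraries with pancreatic transcripts and -0.0872 to 0.0383 with 1 library left out (0.0309 without EW 1, 0.0383 without Control 4); and Nr1h4 in EW against control, -0.0822 without libraries with pancreatic transcripts and -0.0552 (without EW 1) to 0.417 with 1 library left out. The cause was not tested. Depth limits Fabp6 and Fgf15, at 0 to 21 counts per library.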
